A study of Mus musculus with 8 samples.

Results

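The genes that copy and divide the genome were followed in whole colon of mice with graft-versus-host disease. The set of 40 genes was listed by name, 18 for DNA replication and 22 for mitosis. Of these, 37 were found among the 19505 genes on the array, 17 for replication and 20 for mitosis. Mcm7, Ccnb1 and Foxm1 were not analysed here. Each of the 37 had 1 probe set.

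All 8 mice were wild-type BALB/c recipients that received a lethal dose of radiation and then a transplant of C57BL/6 bone marrow and T cells on day 0. In this model the donor T cells attack the tissues of the recipient, including the gut. The PBS group of 4 mice took PBS by mouth from day 0 to day 7, and the hBD-2 group of 4 mice took 1.2 mg/kg hBD-2, human beta-defensin 2, an antimicrobial peptide of epithelial cells. Colon was collected on day 7, and each mouse had its own array. Both groups had been irradiated and transplanted, so no value below compares with a healthy colon. Dividing recipient cells and dividing donor cells both add to whole tissue, and these arrays do not separate them. In bulk tissue, fewer cells of a type and less RNA per cell cannot be told apart.

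Cells commit to division when E2F transcription factors switch on the genes for S phase, the phase in which DNA is copied. The Mcm proteins form a ring-shaped helicase that Cdc6 and Cdt1 load at replication origins, and Cdc45 and the GINS complex then activate it. Later in the cycle the genes for mitosis come on, many of them through CHR and CCAAT elements in their promoters, to which the MuvB complex and NF-Y bind. In the colon, division is concentrated in the lower crypt, and radiation and immune attack both injure these cells. Activated T cells divide as well.

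The promoters show these classes as letters. RefSeq promoter windows (build GRCm38.p6, 250 bases before to 50 bases after the gene start) were found for 30 of the 37 genes, 14 for replication and 16 for mitosis; Mcm4, Gins2, Ccne2, Ccna2, Aurkb, Kif20a and Tpx2 had none. Both strands were searched for E2F sites (TTTGGCG or TTTCCCG), the CHR (TTTGAA) and the CCAAT box (CCAAT). An E2F match was found in 6 of the 14 replication windows (42.9%), in 1 of the 16 mitosis windows (6.25%), that of Birc5, and in 5.91% of all 21262 windows of protein-coding genes. A CHR match was found in 13 of the 16 mitosis windows (81.2%), against 2 of the 14 replication windows (14.3%) and 16% of all windows. All 13 also held a CCAAT box, a pair that 6.38% of all windows held. CCAAT alone was found in 15 of 16 mitosis windows (93.8%), 8 of 14 replication windows (57.1%) and 38.2% of all. A match describes the letters and does not show that a factor binds there.

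The 150 bases before the start are shown for 2 genes of each class, so that the sites can be read: those with the most E2F matches for replication and the most CHR and CCAAT matches for mitosis, counted within these 150 bases, ties taken in alphabetical order. Capitals mark the matches on either strand. Mcm6 at chr1:128359706-128359855 (minus strand) held 2 E2F and 2 CCAAT matches there, and Cdc6 at chr11:98908001-98908150 (plus strand) held 1 E2F match. Top2a at chr11:99024190-99024339 (minus strand) held 1 CHR and 4 CCAAT matches, and Cdk1 at chr10:69352913-69353062 (minus strand) held 2 of each.
Mcm6: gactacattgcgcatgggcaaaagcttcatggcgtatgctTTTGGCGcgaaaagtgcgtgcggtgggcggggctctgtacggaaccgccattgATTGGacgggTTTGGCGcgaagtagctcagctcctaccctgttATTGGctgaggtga
Cdc6: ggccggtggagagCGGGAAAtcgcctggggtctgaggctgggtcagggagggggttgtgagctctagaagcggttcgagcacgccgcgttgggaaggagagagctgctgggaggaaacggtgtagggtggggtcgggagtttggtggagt
Top2a: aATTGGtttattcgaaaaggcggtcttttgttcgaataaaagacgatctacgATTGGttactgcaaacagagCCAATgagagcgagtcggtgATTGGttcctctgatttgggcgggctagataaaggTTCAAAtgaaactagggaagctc
Cdk1: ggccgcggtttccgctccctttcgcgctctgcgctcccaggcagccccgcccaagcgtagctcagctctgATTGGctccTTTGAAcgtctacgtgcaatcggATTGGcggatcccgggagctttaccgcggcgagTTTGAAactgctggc

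Values are log2 expression after RMA, an array method that corrects background and makes the arrays alike in distribution, and differences are hBD-2 minus PBS in log2 units. Array medians lay between 6.77 and 6.82. In genes of the posterior colon 2 mice of the treated group, hBD-2 1 and hBD-2 3, were far above all others. The mean of 10 such genes, relative to each gene's own mean, was 1.19 and 0.95 in these mice and -0.51 to -0.20 in the other 6. Member differences that turned or moved by over 1.5 times without this pair are given without it as well. All 11 epithelial markers measured and all 15 colonocyte markers lay above the median level of all genes. Epcam, the pan-epithelial adhesion molecule, ran from 12.00 to 12.16 over the 8 arrays. Cdx2, also an epithelial marker, was less even. It stood at 9.44 for hBD-2 1 and 9.48 for hBD-2 3, while PBS 4, the next lowest mouse, read 10.11. The Cdx2 difference was -0.30 (SE 0.19), and 0.10 without this pair. Krt18 was at -0.16 (SE 0.090). Of the 11 epithelial markers, 8 had differences above 0 and 3 below.

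None of the 37 genes differed between the groups past an adjusted p of 0.05 (limma with Benjamini-Hochberg adjustment over all genes), a threshold that 0.041% of all genes passed. At an unadjusted p under 0.05 the count was also 0 of 37, where 11.8% of all genes passed, 5.98% lower and 5.85% higher. Among the 9618 genes at least as bright on average as the dimmest of the 37, 10.9% passed, 701 lower and 344 higher. The smallest adjusted p was 0.481, that of Bub1. In no gene did the groups separate, whereas in 3.6% of all genes every hBD-2 mouse lay below every PBS mouse and in 2.8% every one lay above.

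The differences were also small in size. The 17 replication genes had a median difference of 0.021 and the 20 mitosis genes of 0.0014, beside 0.012 over all genes. Of the replication genes 15 lay above 0 and of the mitosis genes 10, beside 10428 of all 19505 genes. Of the 9618 genes at least as bright as the dimmest member 4319 did. The split of signs was not tested. In absolute size the median was 0.060 for the 37 genes and 0.093 for all genes. No member exceeded 0.2 in either direction, while 18.8% of all genes did. The median residual SD between mice was 0.086 for the members and 0.143 over all genes. Among the 9618 genes at least as bright as the dimmest member the gap was smaller: a median difference of -0.015, a median absolute difference of 0.079, a median residual SD of 0.117 and 15.3% beyond 0.2. That set was not otherwise matched to the members in brightness, and the part of brightness in the gap was not tested. The 95% intervals of the members reached a median of 0.17 to either side, and for 32 of 37 the whole interval lay between -0.3 and 0.3. Each interval is for 1 gene alone. The lowest bound was -0.37, for Bub1 (0.772-fold), and the highest was 0.40, for E2f1 and Ccne2 (1.32-fold each). Larger group differences lie outside these intervals, and smaller ones could not be resolved with 4 mice per group.

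**Figure D1:**
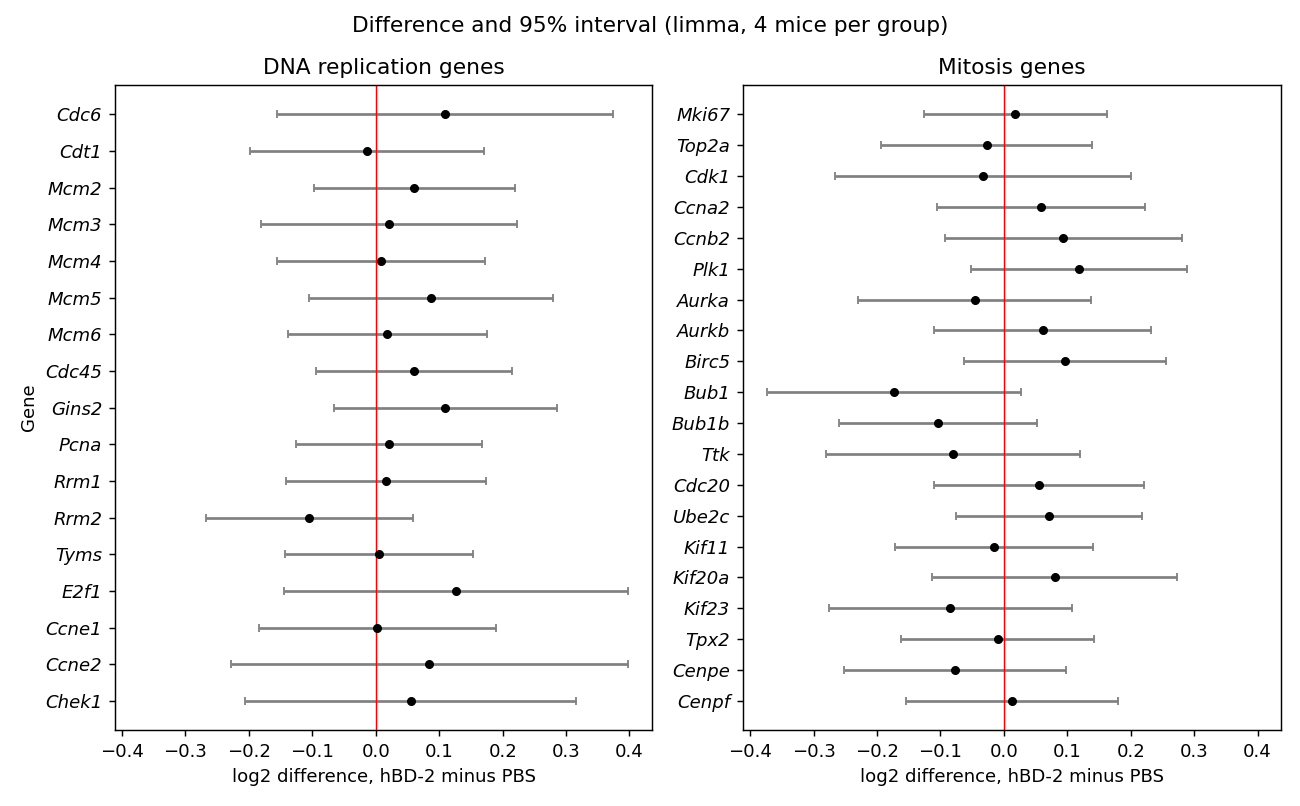
Log2 difference between hBD-2 and PBS mice (x axis) for each replication gene (left) and mitosis gene (right), with 95% intervals from limma, 4 mice per group. All 37 intervals cross the red line at 0, and the points run from -0.17 for Bub1 to 0.13 for E2f1.

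**Figure D2:**
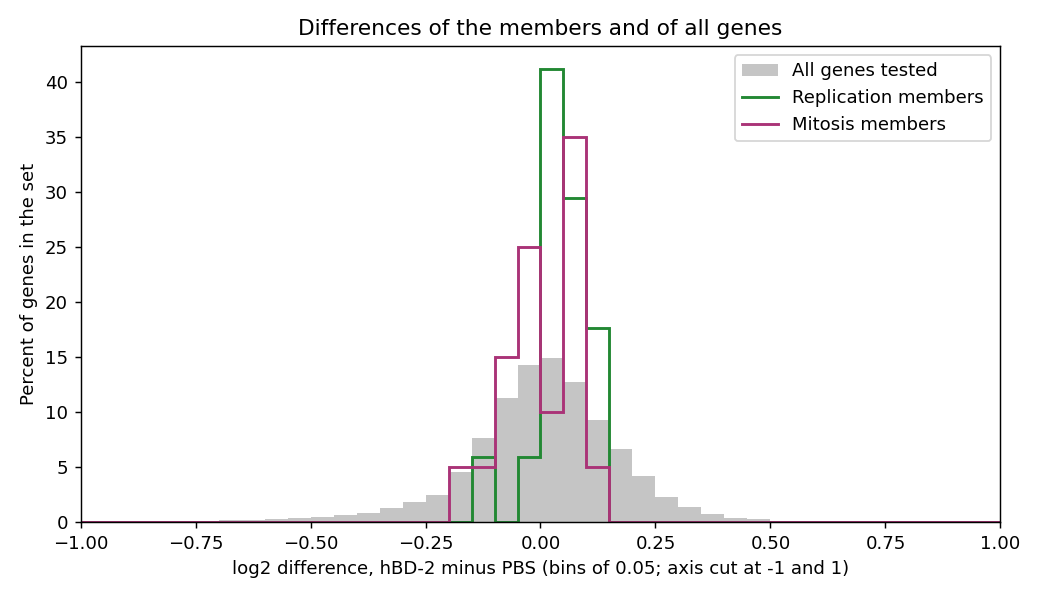
Share of genes (y axis, percent) by log2 difference between hBD-2 and PBS mice (x axis, bins of 0.05) for all 19505 genes, the 17 replication genes and the 20 mitosis genes. The members lie between -0.2 and 0.2, a range that 18.8% of all genes exceed.

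Mki67 encodes the protein stained as Ki-67, the usual mark of dividing cells in tissue sections. It read 11.20, 11.23, 11.23 and 11.17 in PBS mice 1 to 4 and 11.28, 11.17, 11.26 and 11.20 in hBD-2 mice 1 to 4. The groups overlapped, though hBD-2 1 and hBD-2 3 lay above the whole PBS group. The difference of 0.018 had an interval of -0.13 to 0.16, which is 0.917-fold to 1.12-fold. Top2a, the topoisomerase that untangles sister DNA and another common mark, read 9.67, 9.75, 9.74 and 9.71 in PBS mice and 9.69, 9.54, 9.78 and 9.75 in hBD-2 mice. Its difference was -0.027 (SE 0.075), and hBD-2 2 was the lowest of the 8.

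Among the replication genes, the 2 loaders of the helicase stood at 0.11 (SE 0.12) for Cdc6 and -0.014 (SE 0.083) for Cdt1. Cdc6 read 7.85, 8.22, 7.83 and 7.66 in PBS mice and 7.85, 7.96, 8.15 and 8.05 in hBD-2 mice. The PBS group thus held both its highest and its lowest value, in PBS 2 and PBS 4.

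The helicase and its activators gave 7 differences above 0, none of which passed: Mcm2, Mcm3, Mcm4, Mcm5, Mcm6, Cdc45 and Gins2 lay between 0.0077 and 0.11, with bounds from -0.18 to 0.29. Of all 19505 genes 10428 lay above 0, and of the 9618 genes at least as bright as the dimmest member 4319 did. Mcm2 read 9.64, 9.61, 9.56 and 9.46 in PBS mice and 9.62, 9.71, 9.60 and 9.60 in hBD-2 mice, a difference of 0.061 (SE 0.071). Mcm6, whose promoter is printed above, read 10.30, 10.32, 10.37 and 10.19 against 10.31, 10.24, 10.31 and 10.38. PBS 4 was the lowest mouse for both genes, and also for Mcm3, Mcm5 and Cdc45. Gins2, a GINS subunit, had the largest difference of the 7 at 0.11 (SE 0.079). It read 7.75, 7.75, 7.82 and 7.76 in PBS mice and 8.04, 7.78, 7.77 and 7.92 in hBD-2 mice, so that hBD-2 1 and hBD-2 4 were above the other 6. The sign of the 7 genes held under both scaling alternatives, but Mcm3 turned with array weights, Mcm4 turned without hBD-2 1 and hBD-2 3, and Mcm3, Mcm4 and Mcm6 turned with single arrays left out.

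Pcna, the sliding clamp of the DNA polymerases, read 11.67, 11.78, 11.67 and 11.69 in PBS mice and 11.69, 11.72, 11.78 and 11.69 in hBD-2 mice. Its difference was 0.021 (95% interval -0.13 to 0.17). The genes that supply nucleotides were Rrm1 and Rrm2, the subunits of ribonucleotide reductase, and Tyms, thymidylate synthase. Rrm1 was at 0.016 (SE 0.071) and Tyms at 0.0050 (SE 0.066). Rrm2 was the lowest of the replication genes at -0.10 (SE 0.073, adjusted p = 0.604 by limma). It read 10.64, 10.60, 10.42 and 10.59 in PBS mice and 10.50, 10.39, 10.47 and 10.47 in hBD-2 mice, with PBS 3 below 3 of the 4 hBD-2 mice.

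E2f1, Ccne2 and Chek1, 3 of the 4 genes of S phase entry and its checkpoint, varied widely from mouse to mouse. E2f1, which drives the S phase genes, read 6.98, 7.14, 7.15 and 6.69 in PBS mice and 7.19, 7.32, 7.05 and 6.91 in hBD-2 mice. It had the largest difference above 0 of all 37 genes, 0.13 (SE 0.12, adjusted p = 0.715 by limma). Ccne2, one of the cyclin E genes that start replication, ranged over 0.67 log2 units, from 6.75 in hBD-2 2 to 7.41 in hBD-2 3. Its difference was 0.084 (SE 0.14), and it was at -0.057 without hBD-2 1 and hBD-2 3. Ccne1, the other cyclin E gene, was at 0.0026 (SE 0.084) and at -0.083 without that pair. Chek1, the checkpoint kinase that restrains the cycle when replication stalls, ran from 8.73 in hBD-2 1 to 9.16 in hBD-2 4 and was at 0.055 (SE 0.12).

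Among the mitosis genes, Cdk1, the kinase that drives entry into mitosis, read 9.15, 9.08, 9.14 and 8.75 in PBS mice and 9.01, 8.92, 9.16 and 8.90 in hBD-2 mice. Its difference was -0.033 (SE 0.11), and it was at -0.13 without PBS 4, the lowest mouse. Its partner cyclins Ccna2 and Ccnb2 were at 0.059 (SE 0.073) and 0.094 (SE 0.084). Ccnb2 read 9.96, 9.95, 10.20 and 9.90 in PBS mice and 10.15, 10.11, 10.14 and 10.0008 in hBD-2 mice. PBS 3 was the highest of all, and the other 3 PBS mice lay below the 4 hBD-2 mice.

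The mitotic kinases Plk1, Aurka and Aurkb and the survivin gene Birc5, whose product works in a complex with Aurora B, lay between -0.046 and 0.12. Plk1, which acts at centrosomes, kinetochores and in cytokinesis, read 10.40, 10.50, 10.50 and 10.30 in PBS mice and 10.57, 10.60, 10.58 and 10.43 in hBD-2 mice. Of the 4 hBD-2 mice 3 were above all PBS mice, and the difference of 0.12 (SE 0.077) had an adjusted p of 0.572 in limma. Birc5 was at 0.097 (SE 0.072), Aurkb at 0.061 (SE 0.077) and Aurka at -0.046 (SE 0.083). PBS 4 was the lowest mouse for all 4 genes.

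The spindle checkpoint holds cells until every chromosome is attached. Its 3 kinase-related genes, Bub1, Bub1b and Ttk, were at -0.17 (SE 0.090), -0.10 (SE 0.070) and -0.080 (SE 0.090), and none passed. Bub1 read 9.08, 9.17, 9.15 and 9.02 in PBS mice and 8.96, 8.78, 9.14 and 8.85 in hBD-2 mice, with only hBD-2 3 inside the PBS range. Bub1b read 8.85, 8.83, 8.82 and 8.79 in PBS mice, and 8.68, 8.68, 8.85 and 8.66 in hBD-2 mice, again with hBD-2 3 apart from its group. Without hBD-2 1 and hBD-2 3, Bub1 was at -0.29 (adjusted p = 0.260 by limma) and without hBD-2 3 alone at -0.24 (adjusted p = 0.314). These were the settings in which Bub1 had an unadjusted p under 0.05, and without the pair 12.8% of all genes did. Ttk was at -0.20 without the pair.

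The genes that destroy mitotic proteins at anaphase, Cdc20, the activator of the anaphase-promoting complex, and Ube2c, its ubiquitin-conjugating enzyme, were at 0.056 (SE 0.075) and 0.071 (SE 0.066). Ube2c read 10.56, 10.66, 10.60 and 10.56 in PBS mice and 10.72, 10.66, 10.67 and 10.60 in hBD-2 mice. Only hBD-2 1 and hBD-2 3 lay above the whole PBS group.

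The motor and spindle genes lay between -0.084 and 0.080. Kif11, the motor that pushes spindle poles apart, was at -0.016 (SE 0.070), and Tpx2, which activates Aurora A on the spindle, at -0.0099 (SE 0.069). Kif23 and Kif20a, motors of cytokinesis, were at -0.084 (SE 0.086) and 0.080 (SE 0.087). Both had hBD-2 2 as the lowest and hBD-2 3 as the highest mouse, at 10.13 and 10.48 for Kif23 and 9.26 and 9.64 for Kif20a. Without hBD-2 1 and hBD-2 3, Kif20a was at -0.017. Cenpe, a kinetochore motor, was at -0.077 (SE 0.078), and Cenpf, another kinetochore protein, at 0.013 (SE 0.075).

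Some mice stood low or high across many of the genes. Relative to each gene's mean, the average of the replication genes was -0.00011, 0.081, -0.037 and -0.12 in PBS mice 1 to 4 and 0.0057, -0.016, 0.067 and 0.022 in hBD-2 mice 1 to 4. For the mitosis genes it was 0.012, 0.024, 0.050 and -0.088, against 0.011, -0.030, 0.078 and -0.057. PBS 4 was the lowest of the 8 mice in 20 of 37 genes, 8 for replication and 12 for mitosis. In hBD-2 3, 19 of 20 mitosis genes and 13 of 17 replication genes were above their own mean. The classes parted in hBD-2 4, where 9 of 17 replication genes and 4 of 20 mitosis genes were above it, and in PBS 3, with 4 of 17 and 17 of 20. These orders are descriptions of 8 arrays and were not tested. The same counts were not made over all genes, so they cannot be read as particular to the dividing genes.

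Leaving out hBD-2 1 and hBD-2 3 moved many of these small differences. The sign turned in 8 of the 37 members: Cdt1 was then at 0.031, Mcm4 at -0.034, Rrm1 at -0.052, Tyms at -0.053, Ccne1 at -0.083, Ccne2 at -0.057, Mki67 at -0.023 and Kif20a at -0.017. In another 14 the sign held and the size moved by over 1.5 times. Farther from 0 were Bub1 and Ttk, with the values above, Chek1 at 0.15, Top2a at -0.072, Cdk1 at -0.12, Kif11 at -0.061, Kif23 at -0.15 and Tpx2 at -0.038. Nearer 0 were Mcm3 at 0.0072, Pcna at 0.0072, Ccna2 at 0.0012, Ccnb2 at 0.049, Cdc20 at 0.026 and Ube2c at 0.039. Only Bub1 had an unadjusted p under 0.05 in that setting, where 12.8% of all genes did. No member then passed the adjusted threshold in limma.

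**Figure D3:**
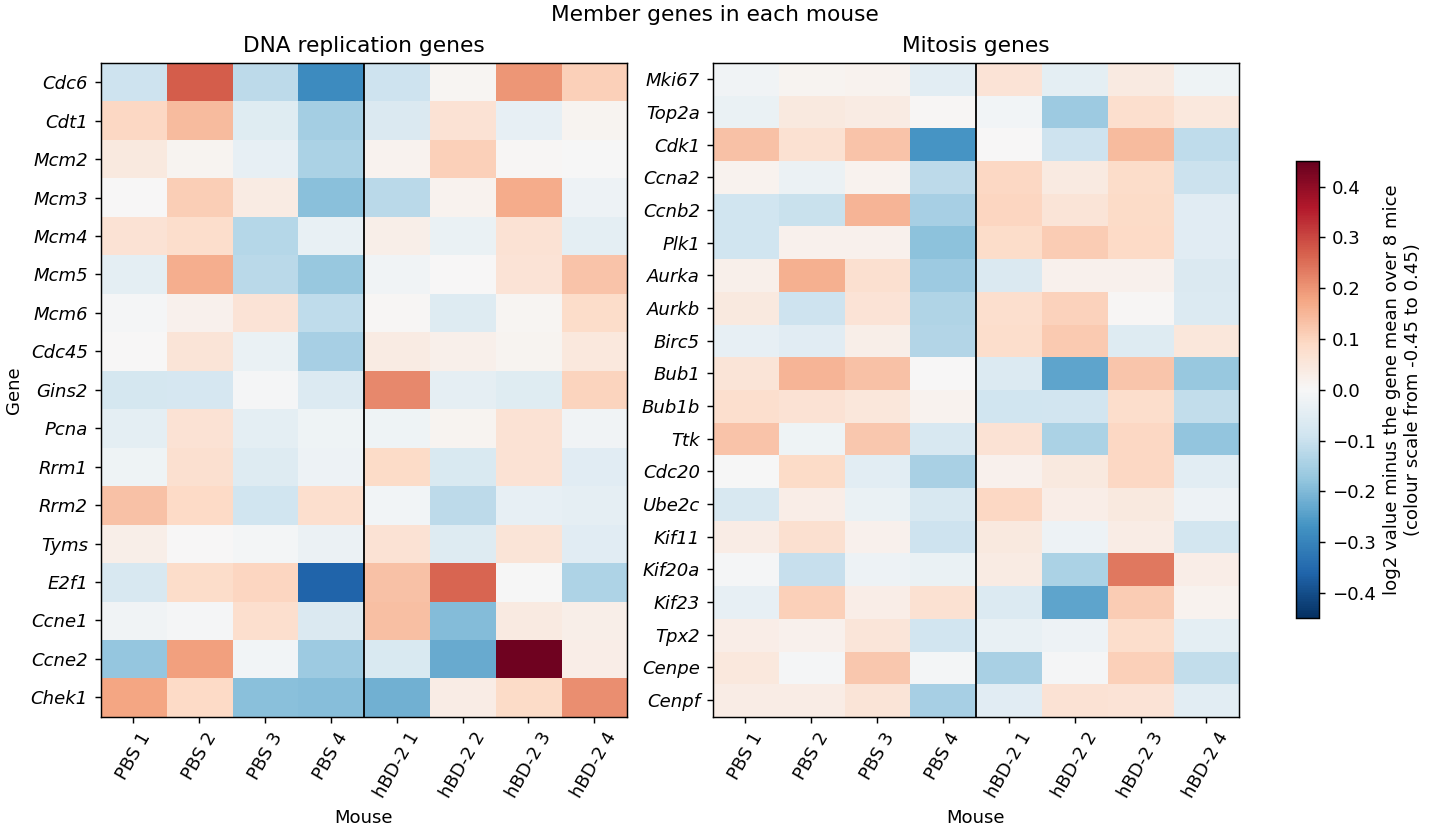
Colour gives the log2 value minus the gene's mean over the 8 mice, with genes in rows by role and mice in columns; the black line divides PBS from hBD-2 mice. PBS 4 is blue in most rows, and hBD-2 3 is red in 19 of 20 mitosis genes.

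Markers of other cells were read in the same arrays. In PBS 4, the lowest mouse for the dividing genes, the mean of 15 differentiated colonocyte markers was -0.25 and that of 13 T cell markers 0.23. These were the lowest and the highest of the 8 for those lists. PBS 4 was also the lowest for B and plasma cell genes (-0.21) and cycle inhibitors (-0.068), and the highest for endothelial genes (0.26). Its means for epithelial and crypt progenitor markers, -0.040 and -0.043, were not the lowest. In hBD-2 2 the T cell mean was -0.42, the lowest. Over the groups, T cell means ran from -0.053 to 0.23 in PBS mice and from -0.42 to 0.098 in hBD-2 mice. Of the 13 T cell markers 10 were above the median level of all genes. Their part in the levels of the dividing genes was not tested. Without PBS 4 the median difference was 0.011 for replication and -0.033 for mitosis genes.

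Further genes of the same machinery were read from lists chosen by function. Of 47 other replication genes measured none passed the adjusted threshold in limma. At an unadjusted p under 0.05, 1 was higher, the salvage kinase Tk1 at 0.22 (SE 0.072, adjusted p = 0.278), and none was lower, against 5.85% and 5.98% of all genes. Tk1 read 7.27, 7.17, 7.20 and 7.37 in PBS mice and 7.44, 7.53, 7.49 and 7.42 in hBD-2 mice, without overlap. Of 67 other mitosis genes none passed either threshold. The list medians were 0.0011 and -0.011. Without hBD-2 1 and hBD-2 3, 2 genes of each list were lower and 1 replication gene higher at the unadjusted threshold. In that setting 12.8% of all genes passed it in either direction. The lowest p in the mitosis list was that of Mybl2, a transcription factor of the late cycle, at -0.29 (SE 0.13, adjusted p = 0.436 by limma). Omitting the pair moved it to -0.093, and with single arrays left out it lay between -0.36 and -0.18.

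Upstream of the cycle, 23 genes of G1 control had a median of -0.030, and Myc was the 1 gene with an unadjusted p under 0.05, against 11.8% of all genes. Myc, a transcription factor that promotes growth and entry into the cycle, read 10.62, 10.75, 10.49 and 10.41 in PBS mice and 10.07, 10.21, 9.90 and 10.24 in hBD-2 mice. The groups did not overlap. The difference of -0.46 (SE 0.10) did not pass in limma (adjusted p = 0.138), and passed in 1 of 19 alternatives, with an intensity trend and robust prior (adjusted p = 0.0281, against up to 0.362 without PBS 2). With single arrays left out it stayed between -0.52 and -0.40. Omitting the pair hBD-2 1 and hBD-2 3 moved it to -0.34.

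Of 17 inhibitors of the cycle 1 had an unadjusted p under 0.05, where 11.8% of all genes did. It was Cdkn2b, an inhibitor of Cdk4 and Cdk6, which was higher at 0.26 (SE 0.11, adjusted p = 0.376 by limma). The list median was 0.061, and -0.016 without hBD-2 1 and hBD-2 3. Cdkn1a, the p53-induced inhibitor known as p21, read 10.94, 10.97, 10.87 and 10.90 in PBS mice and 11.39, 10.98, 11.09 and 10.75 in hBD-2 mice. Its difference was 0.13 (SE 0.12) and turned to -0.055 without that pair, with hBD-2 1 the highest of the 8 mice.

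The cells that divide in the crypt were followed through 17 stem and progenitor markers, which had a median of 0.058 (0.021 without the pair and -0.0024 without PBS 4). Lgr5, the marker of crypt stem cells, read 7.21, 7.22, 7.34 and 7.42 in PBS mice and 7.63, 7.55, 7.39 and 7.27 in hBD-2 mice, a difference of 0.16 (SE 0.095). At an unadjusted p under 0.05, Smoc2 was higher at 0.38 (SE 0.10) and Ephb3 lower at -0.23 (SE 0.083), with adjusted p of 0.218 and 0.333 in limma, where 5.85% of all genes were higher and 5.98% lower. Neither kept that unadjusted call without hBD-2 1 and hBD-2 3, at 0.29 and -0.19. The 11 epithelial markers had a median of 0.015 and the 15 colonocyte markers of 0.086, with 1 and 3 genes higher at that threshold and none lower. Without the pair the medians were 0.014 and 0.15, with 0 and 1 genes higher, where 12.8% of all genes passed in either direction. Without PBS 4 the colonocyte median was 0.056.

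Other lists of the same colon moved further from 0 than the dividing genes, and the difference between lists was not tested. The medians were -0.50 for 10 macrophage genes, -0.48 for 10 fibroblast and matrix genes, -0.37 for 8 endothelial genes, -0.19 each for 13 T cell and 8 smooth muscle genes, 0.084 for 8 B and plasma cell genes and 0.70 for the 10 posterior colon genes. Only 1 of the B and plasma cell genes and 3 of the posterior colon genes lay above the median level of all genes. Cd79b, the B cell gene counted below, was dim and averaged 3.81 in PBS and 4.03 in hBD-2 mice. At an unadjusted p under 0.05, 8 macrophage, 7 matrix, 6 endothelial, 4 T cell and 1 smooth muscle genes were lower, and 2 posterior colon genes and 1 B cell gene were higher, against 5.98% and 5.85% of all genes. Omitting the pair gave 5, 6, 4, 8 and 1 lower genes, in the same order, and 2 posterior colon and 3 B and plasma cell genes that were higher. Of all genes 12.8% then passed that threshold in either direction. Of the macrophage genes Aif1 was the one that passed adjustment in limma (-0.96, adjusted p = 0.0467), and this call was lost in 13 of 18 alternatives, among them the omission of any single array (adjusted p from 0.00504 to 0.227 over the 18). Without hBD-2 1 and hBD-2 3 the macrophage, matrix, endothelial, smooth muscle and posterior colon medians were -0.32, -0.30, -0.25, -0.072 and -0.079, and the T cell median was -0.43. In that setting the replication and mitosis medians were 0.020 and -0.031.

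**Figure D4:**
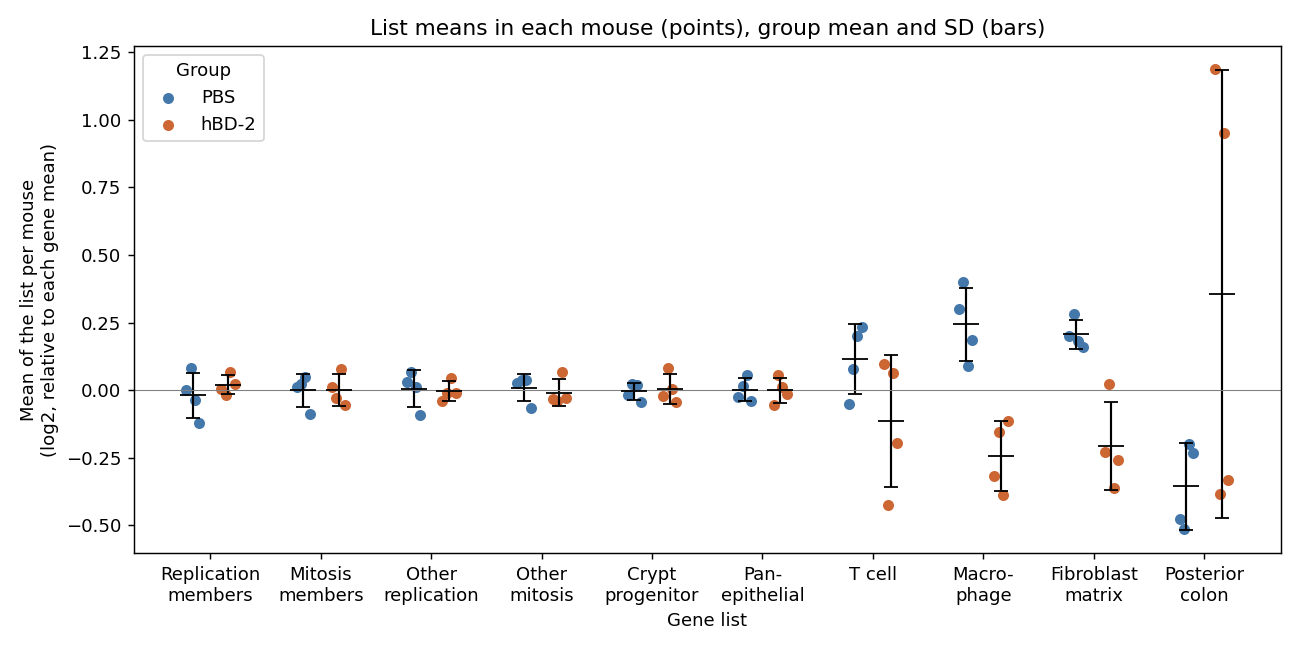
Mean log2 value of each list in each mouse relative to the gene means (y axis), for the replication and mitosis genes and 8 other lists (x axis); points are mice, bars the group mean and SD, n = 4. The replication and mitosis points lie between -0.12 and 0.081 in both groups, while the macrophage points are 0.090 to 0.40 in PBS and -0.39 to -0.11 in hBD-2 mice.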

How the data were processed

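RNA of whole colon from 8 mice was labelled with a kit for small amounts of RNA and measured on Affymetrix arrays, 1 per mouse; groups and replicate numbers come from the sample titles. The deposited table holds log2 values, made by the authors with RMA in the R package oligo per the submitters' processing notes, versions not given. RMA equalises the arrays, so a shift shared by most genes would not be seen, and signal over background cannot be read. Array number limits the precision. No array pair was identical. Platform annotation named 1 gene for 19572 of 22203 probe sets and several for none, and 2631 stayed unnamed; the brightest probe set of a gene was kept (19505 genes). No genome build for the probes was given in the sources used here.

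R 4.3.3 with limma 3.58.1 (lmFit, then eBayes) tested the differences, two-sided, Benjamini-Hochberg over 19505 genes, threshold 0.05, with moderated standard errors and 95% intervals. The code was tested on simulated data. Members, lists and promoter motifs were chosen with earlier results of these data known. The text names all members, the 3 lowest p-values of each other list where a result turns on them, and Lgr5, Myc, Ccnd1 (where measured), Cdkn1a, Epcam, Cd3e and Hoxb13. Alternatives were an intensity trend with robust prior, leaving out dim genes, centring, repeated quantile normalization, averaged probe sets, array weights, a replicate block, a log2 minimum of 4, all probe sets, and leaving out each array; leaving out hBD-2 1 and hBD-2 3 was chosen after the data were seen. Figures used matplotlib 3.10.9.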

Additional observations from a re-analysis of the deposited data

Results flagged for a closer look

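In 4 of the 74 groups of 4 mice examined for the members, 1 mouse lay far from the other 3 by Dixon's criterion at the 95% level, which chance meets in about 1 group in 20. Cdk1 was at 8.75 in PBS 4, with the other PBS mice between 9.08 and 9.15, and Cenpf was at 7.70 in PBS 4, against 7.88 to 7.91. Mcm2 was at 9.71 in hBD-2 2, against 9.60 to 9.62 in the other hBD-2 mice, and Bub1b was at 8.85 in hBD-2 3, against 8.66 to 8.68.

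Among the other genes named by rule, the epithelial factor Cdx1 was at 9.96 in hBD-2 3 (9.73 to 9.75 in the rest of its group). The macrophage receptor Mrc1 was at 9.67 in hBD-2 2 (9.27 to 9.33), and the T cell receptor chain Cd3e was at 7.98 in PBS 1 (8.36 to 8.43).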

How the results depend on the processing

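Under all 19 alternatives 0 replication and 0 mitosis members passed an adjusted p of 0.05 in limma, and the class medians moved by less than the spread between mice. The count of members at an unadjusted p under 0.05 was 0, except 1 without hBD-2 1 and hBD-2 3 (Bub1), and 0 to 1 with single arrays left out (Cdc6 without PBS 2, Bub1 without hBD-2 3). The calls among all genes, 8 here, numbered 91 with an intensity trend and robust prior, 16 and 47 without the lowest 25% and 50% of genes, 4 with quantile normalization repeated, 68 with array weights, 5 over all probe sets, 0 with a log2 minimum of 4, 0 with the replicate block, which gave the members no call, 0 without hBD-2 1 and hBD-2 3, and 0 to 11 with single arrays left out. Same-numbered mice deviated from their group means with correlations of -0.15, 0.14, 0.24 and 0.045, so the numbers were not taken as pairs, and the replicate block stood as an alternative.

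The sign of 16 of the 37 members turned in some setting, all of them with a difference of at most 0.084 in size. Centring arrays gave Cdt1 0.0056, Kif11 0.0040 and Tpx2 0.0098. Repeated quantile normalization gave Cdt1 0.0062, Mki67 -0.0037, Kif11 0.0027 and Tpx2 0.013. Array weights gave Mcm3 -0.0060, Chek1 -0.013 and Cenpf -0.0076. Without hBD-2 1 and hBD-2 3, Cdt1 was at 0.031, Mcm4 at -0.034, Rrm1 at -0.052, Tyms at -0.053, Ccne1 at -0.083, Ccne2 at -0.057, Mki67 at -0.023 and Kif20a at -0.017. Genes outside the members turned there too: Cdx2 from -0.30 to 0.10, Hoxd13 from 0.83 to -0.085, Cdkn1a from 0.13 to -0.055 and Hoxb13 from 1.22 to -0.79. With single arrays left out, the ranges were -0.067 to 0.031 for Cdt1, -0.039 to 0.064 for Mcm3, -0.033 to 0.036 for Mcm4, -0.017 to 0.042 for Mcm6, -0.0099 to 0.043 for Rrm1, -0.015 to 0.025 for Tyms, -0.042 to 0.069 for Ccne1, -0.047 to 0.17 for Ccne2, -0.0049 to 0.14 for Chek1, -0.057 to 0.023 for Top2a, -0.13 to 0.0061 for Cdk1, -0.049 to 0.0094 for Kif11, -0.040 to 0.0066 for Tpx2 and -0.035 to 0.034 for Cenpf. The cause of these turns was not tested.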
